A study of Mus musculus with 23 samples.

Results

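The peptide hormone receptors of islets studied here are Glp1r, Gipr, Gcgr, Vipr1, Vipr2, Adcyap1r1 and Ghsr, 7 genes chosen by name as receptors of incretins and related peptides. They were looked up by Ensembl gene ID among the 20599 genes of the deposited expression table. Of the 7, 6 had values and 5 reached the level needed for a test, out of 15031 genes tested. The expression of Gcgr, the glucagon receptor gene, was not analysed here, and Adcyap1r1 lay below the filter.

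The incretins GLP-1 and GIP are gut peptides released after a meal, and they strengthen glucose-stimulated insulin secretion through receptors on the β cell. GLP-1, GIP, glucagon, VIP and PACAP receptors are class B G-protein-coupled receptors that act mainly through the stimulatory G protein, adenylyl cyclase and cAMP, which activates protein kinase A, EPAC2 and the transcription factor CREB. The ghrelin receptor Ghsr is a class A receptor, and ghrelin lowers insulin release from β cells.

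RNA was measured by poly(A) RNA-seq in 3 genotypes of β-TC6, a mouse insulinoma line that makes insulin, with 3 libraries each from wells of a plate. Bmal1-/- cells lack exon 8 of Bmal1 (annotated as Arntl), deleted by CRISPR-Cas9 and homology-directed repair with neomycin selection, and Clock-/- cells lack exons 6 to 7 of Clock, deleted in the same way with puromycin selection. Both lines were picked as single colonies, WT cells were the control line, and all were used at passage 5 to 15. The libraries of a genotype are wells of 1 line, so the p-values measure the spread between wells, and the genotype and the picked colony cannot be told apart. BMAL1 and CLOCK pair on E-box DNA to drive the circadian clock, and the comparisons ask which receptor mRNAs differ when either is lost.

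Libraries held 13056329 to 27185558 reads on genes, recovered from the deposited values. Log2 levels correlated at 0.976 to 0.993 between libraries of 1 genotype and at 0.918 to 0.952 between genotypes. Arntl mRNA was 3.32 to 3.52 TPM in Bmal1-/-, 10.6 to 16.2 TPM in Clock-/- and 3.52 to 4.22 TPM in WT libraries, and Clock mRNA was 30.9 to 36.5 TPM in Bmal1-/-, 28.0 to 46.6 TPM in Clock-/- and 40.9 to 49.7 TPM in WT libraries. These levels cover the whole gene and do not check the deletions. All 10 β-cell markers had values, and their summed level was 40209 to 42852 TPM in Bmal1-/-, 34193 to 40056 TPM in Clock-/- and 55456 to 57905 TPM in WT libraries. By the limma test used for the receptors, 1 of these 10 markers rose and 5 fell in Bmal1-/- cells against WT, beside 39.4% of all genes that passed. In Clock-/- cells 3 rose and 6 fell against WT, beside 23.9% of all genes. Nkx6-1 was the rise in Bmal1-/- cells, by 1.29 on the log2 scale (adjusted p = 3.3e-07). The rises in Clock-/- cells were G6pc2 (0.98, adjusted p = 8.95e-06), Nkx6-1 (0.93, adjusted p = 4.07e-06) and Pdx1 (0.49, adjusted p = 0.000686). The insulin gene Ins1 was at 2197 to 2567 TPM in Bmal1-/-, 57.7 to 64.0 TPM in Clock-/- and 2277 to 2359 TPM in WT libraries, and Slc2a2, the glucose transporter gene of β cells, at 34.2 to 50.7 TPM in Bmal1-/-, 5.80 to 8.25 TPM in Clock-/- and 102 to 113 TPM in WT libraries. The other insulin gene, Ins2, was at 18748 to 21755 TPM in Bmal1-/-, 12660 to 16407 TPM in Clock-/- and 27105 to 29444 TPM in WT libraries. The 9 exocrine, duct, stromal and immune markers had values for 6 genes, summing to 1.67 to 2.73 TPM in Bmal1-/-, 2.13 to 4.55 TPM in Clock-/- and 8.44 to 9.08 TPM in WT libraries, most of it Cela1. The summed δ, PP and ε-cell markers, 3 of 4 with values and nearly all Sst, were 18.1 to 23.1 TPM in Bmal1-/-, 288 to 374 TPM in Clock-/- and 83.5 to 94.8 TPM in WT libraries. The part of these differences in the receptor values was not tested.

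Levels are TPM, or reads per base of exon scaled to the same total in each library, so that genes can be set beside each other. Fold changes are differences of log2(TPM + 1) from limma with all 9 libraries in 1 fit, given with the standard error (SE), and a gene is said to rise or fall at a Benjamini-Hochberg adjusted p under 0.01 over the 15031 genes. The added 1 understates changes of low genes. In bulk RNA, fewer cells that express a gene and less RNA per cell cannot be told apart.

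Glp1r was the most abundant of these receptors, followed by Gipr, in each of the 3 genotypes. Mean levels were 209 TPM in Bmal1-/-, 328 TPM in Clock-/- and 350 TPM in WT cells for Glp1r, and Glp1r mRNA made up 92.4 ± 0.66%, 88.6 ± 3.2% and 90.1 ± 0.51% of the summed receptor TPM in these genotypes (SD, n = 3 each). Gipr came next at 9.63 TPM in Bmal1-/-, 23.1 TPM in Clock-/- and 31.0 TPM in WT cells. Among the low receptors the order differed between genotypes. In Bmal1-/- cells Ghsr stood above Vipr1 and Vipr2, whose ranges overlapped. In Clock-/- cells Vipr2 stood above Ghsr and Vipr1, whose ranges overlapped. In WT cells the order was Vipr2, Vipr1 and Ghsr, with no overlap between neighbours, and Adcyap1r1 was the lowest in each genotype.

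**Figure D1:**
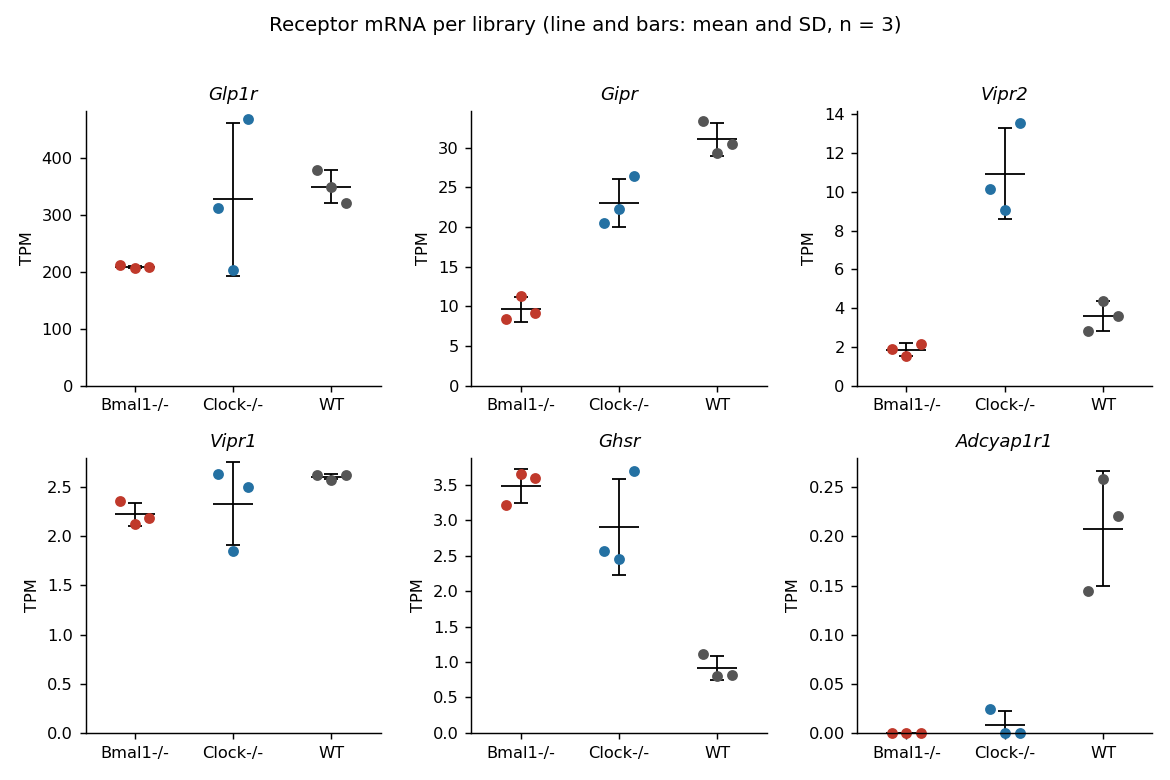
TPM of the 6 receptors with values, in each library of Bmal1-/-, Clock-/- and WT cells (points), with the mean and SD of 3 libraries (line and bars). Gipr is lowest in Bmal1-/- cells at 8.38 to 11.4 TPM, Vipr2 is highest in Clock-/- cells at 9.09 to 13.6 TPM, Ghsr is above WT in both knockouts, and the Clock-/- libraries spread from 203 to 469 TPM for Glp1r.

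In Bmal1-/- cells 3 of the 5 tested receptors passed the test against WT, with Ghsr higher and Gipr and Vipr2 lower. The background is wide, as 39.4% of all genes tested passed in this comparison, 18.4% as rises and 21% as falls. In Clock-/- cells 2 of 5 passed against WT, both as rises, Vipr2 and Ghsr, beside 23.9% of all genes, 9.5% as rises and 14.4% as falls. Between the knockouts 2 of 5 passed, Gipr and Vipr2, both lower in Bmal1-/- than in Clock-/- cells, beside 44.6% of all genes, 22.8% as rises and 21.8% as falls. Past a log2 fold change of 1 were Ghsr and Gipr in Bmal1-/- (11.8% of all genes), Vipr2 and Ghsr in Clock-/- (7.4% of all genes), and Gipr and Vipr2 between the knockouts (14.5% of all genes). The median fold change of the 5 receptors was -0.67 in Bmal1-/- and -0.12 in Clock-/- cells against WT, beside -0.04 and -0.02 over all genes tested, on the log2 scale.

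**Figure D2:**
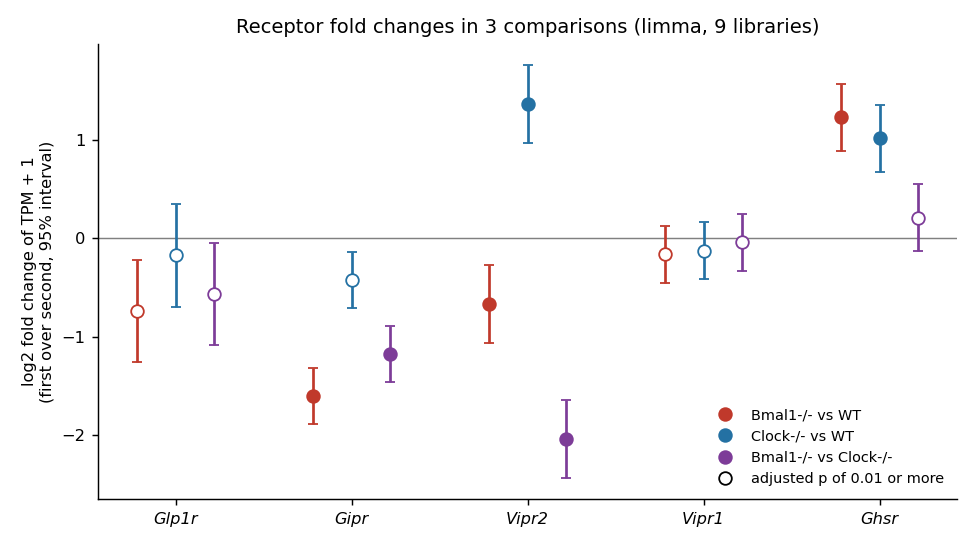
Log2 fold change of TPM + 1 (vertical axis) with its 95% interval for the 5 tested receptors in Bmal1-/- against WT, Clock-/- against WT and Bmal1-/- against Clock-/- cells. Filled points are at an adjusted p under 0.01, with Ghsr above 0 in both knockouts and Vipr2 at -0.67 in Bmal1-/- and 1.37 in Clock-/- cells.

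Glp1r (ENSMUSG00000024027, chr17:30901817-30940791 on GRCm38, plus strand) encodes the receptor of GLP-1 and the target of the GLP-1 agonist drugs. It stood at 211, 207 and 208 TPM in the Bmal1-/- libraries, against 379, 349 and 322 TPM in the WT libraries. All 3 Bmal1-/- values lay below all WT values, and they differed among themselves far less than the WT values did. The log2 fold change was -0.74 (SE 0.23), and its adjusted p of 0.0227 missed the threshold in the fit that shares the spread with Clock-/- cells. Fitted with Bmal1-/- and WT libraries only, the same difference had an adjusted p of 2.81e-05. In reads the gene was well covered, with 1861 to 2784 reads in Bmal1-/- and 2596 to 3515 reads in WT libraries.

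In Clock-/- cells Glp1r stood at 312, 203 and 469 TPM in replicates 1, 2 and 3, a range that took in all WT values. The log2 fold change against WT was -0.17 (SE 0.23, 95% interval -0.70 to 0.35, adjusted p = 0.601), so a fall or a rise of this size cannot be told apart from the spread. Between the knockouts, Bmal1-/- cells lay 0.57 below Clock-/- cells on the log2 scale (SE 0.23, adjusted p = 0.0609). Without Clock-/- replicate 2, the low library, the fold change of Bmal1-/- over Clock-/- was -0.87 with an adjusted p of 0.000786, and the fold change of Clock-/- over WT turned to 0.13. Without Clock-/- replicate 3, the high library, the same fold changes were -0.27 (adjusted p = 0.156) and -0.47 (adjusted p = 0.0315), so the size of both rests on which of these libraries is kept. The deviation of Glp1r from the Clock-/- mean was -0.61 in replicate 2 and 0.60 in replicate 3 on the log2 scale. The 3872 genes with over 5000 bases of exon moved the same way in these libraries, with median deviations of -0.23 and 0.21, while the 1395 genes under 1500 bases had 0.10 and -0.11. These classes use the lengths implied by the deposited values, which place Glp1r itself among the genes under 1500 bases. By the later annotation Glp1r has over 5000 bases. The part of this difference between wells in the Glp1r values was not tested.

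**Figure D3:**
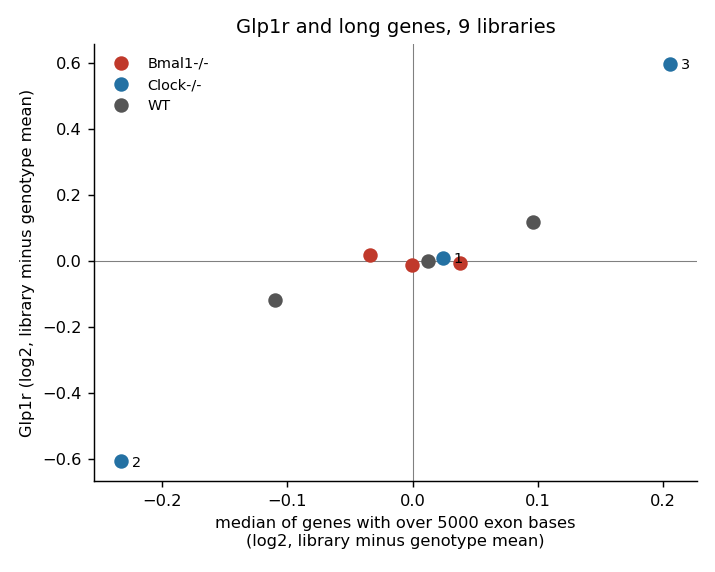
Deviation of Glp1r from the mean of its genotype (vertical axis, log2) against the median deviation of the 3872 genes with over 5000 exon bases (horizontal axis, log2), 1 point per library, with Clock-/- replicates numbered. Clock-/- replicates 2 and 3 lie apart at -0.61 and 0.60 for Glp1r, and the Bmal1-/- libraries lie near 0 on both axes. By the length used for this class, Glp1r is not one of these long genes.

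The Glp1r level also rests on a shorter gene model than the others. The deposited mean count and TPM of Glp1r together imply 1471 bases, against 5811 bases of merged exons in the later GENCODE vM21 annotation. For Gipr, Vipr2, Ghsr and Adcyap1r1 the lengths matched the annotation, at 3482, 4463, 4433 and 6601 bases, and for Vipr1 the files imply 5556 bases against 5800. The height of Glp1r over the other receptors therefore depends on this model, while the comparison of a gene between genotypes uses 1 length throughout.

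Gipr (ENSMUSG00000030406, chr7:19156061-19166127, minus strand), the receptor of GIP, was the receptor with the largest fall in Bmal1-/- cells. Its level was 8.38, 11.4 and 9.12 TPM in the Bmal1-/- libraries, against 33.4, 29.3 and 30.4 TPM in the WT libraries. The highest Bmal1-/- value was under the lowest WT value, and the mean was 3.22-fold lower in Bmal1-/- cells. The log2 fold change was -1.60 (SE 0.13, limma adjusted p = 6.18e-06). In Clock-/- cells Gipr stood at 20.5, 22.3 and 26.4 TPM, between the other genotypes with no overlap with either. The fold change of Clock-/- over WT was -0.42 on the log2 scale (SE 0.13, 95% interval -0.70 to -0.13, adjusted p = 0.0269), past the threshold only when Clock-/- replicate 3 was left out (-0.52, adjusted p = 0.00938). Bmal1-/- cells lay 1.18 below Clock-/- cells on the log2 scale (SE 0.13, adjusted p = 3.77e-05).

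The balance of the incretin receptors differed between genotypes. The ratio of Glp1r to Gipr TPM was 25.2, 18.2 and 22.8 in the Bmal1-/- libraries, 15.2, 9.08 and 17.8 in the Clock-/- libraries and 11.4, 11.9 and 10.6 in the WT libraries. All Bmal1-/- ratios were above all Clock-/- and WT ratios, whereas Clock-/- and WT ratios overlapped. With 3 libraries a genotype, this ratio is given without a test.

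Vipr2 (ENSMUSG00000011171, chr12:116077726-116146261, plus strand) encodes VPAC2, which binds VIP and PACAP and raises cAMP in β cells. Its level was 1.90, 1.54 and 2.17 TPM in Bmal1-/-, 10.2, 9.09 and 13.6 TPM in Clock-/- and 2.84, 4.36 and 3.60 TPM in WT libraries. The 3 genotypes did not overlap, with Clock-/- cells highest and Bmal1-/- cells lowest. Against WT, Vipr2 rose in Clock-/- cells by 1.37 on the log2 scale (SE 0.18, adjusted p = 0.000257), a 3.04-fold higher mean. In Bmal1-/- cells the log2 fold change was -0.67 (SE 0.18, adjusted p = 0.00958), just past the threshold, at 59 to 63 reads per Bmal1-/- library and 80 to 114 reads per WT library. This call was lost under quantile normalization (-0.37, adjusted p = 0.0703), with no filter on low values (adjusted p = 0.0166), and without WT replicate 2 (adjusted p = 0.0426), WT replicate 3 (0.028) or Bmal1-/- replicate 1, 2 or 3 (0.027, 0.0393 and 0.0157). The difference between the knockouts, -2.04 for Bmal1-/- over Clock-/- cells (SE 0.18, adjusted p = 9.32e-06), passed in each of the 17 alternatives.

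Vipr1 (ENSMUSG00000032528, chr9:121642716-121672954, plus strand) encodes VPAC1, the other receptor shared by VIP and PACAP. It stood at 2.36, 2.12 and 2.19 TPM in Bmal1-/-, 2.64, 1.85 and 2.5 TPM in Clock-/- and 2.62, 2.58 and 2.62 TPM in WT libraries. The Clock-/- values spanned those of WT, and the Bmal1-/- values lay a little under WT. The log2 fold changes were -0.16 in Bmal1-/- (95% interval -0.46 to 0.13, adjusted p = 0.318) and -0.12 in Clock-/- cells (95% interval -0.42 to 0.17, adjusted p = 0.497) against WT. Quantile normalization turned the value in Bmal1-/- cells to 0.16, so no direction is given. The ratio of Vipr2 to Vipr1 TPM was 0.804, 0.727 and 0.994 in Bmal1-/-, 3.85, 4.91 and 5.42 in Clock-/- and 1.08, 1.69 and 1.37 in WT libraries. This ratio was lower in each Bmal1-/- library than in any WT library and higher in each Clock-/- library. Which of these receptors was the higher in Bmal1-/- cells is not given, since their levels nearly matched in replicate 3 and the length of Vipr1 differed between annotations.

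Adcyap1r1 (ENSMUSG00000029778, chr6:55451978-55501451, plus strand) encodes PAC1, the receptor selective for PACAP. It had 0, 0 and 0 reads in Bmal1-/-, 1, 0 and 0 reads in Clock-/- and 6, 10 and 8 reads in WT libraries, or 0.144, 0.258 and 0.221 TPM in WT. Reads were present in every WT library and in 1 knockout library. Set against a floor of 3 reads over the 3 Bmal1-/- libraries (0.0204 TPM), the pooled WT level was 10.1-fold higher. That ratio leaves out the counting error of the WT reads, so it is not a lower limit on the difference. The Clock-/- to WT ratio was 0.0458, with a counting interval from 0.00111 to 0.281. The floor and the interval cover counting error only. The gene was under 1 TPM throughout and was not tested in the main fit. With no filter on low values, its log2 fold change against WT was -0.27 in Bmal1-/- cells (limma adjusted p = 0.00621). In Clock-/- cells it was -0.26 (adjusted p = 0.0116).

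Ghsr (ENSMUSG00000051136, chr3:27371351-27378010, plus strand), the ghrelin receptor, was the only receptor of the 5 tested to rise in both knockouts. Its level was 3.21, 3.65 and 3.60 TPM in Bmal1-/-, 2.57, 2.46 and 3.69 TPM in Clock-/- and 1.11, 0.81 and 0.82 TPM in WT libraries. Every knockout library was above every WT library. The log2 fold changes were 1.23 in Bmal1-/- (SE 0.15, adjusted p = 0.000102) and 1.02 in Clock-/- cells (SE 0.15, adjusted p = 0.000624) against the same WT libraries, and means were 3.82-fold and 3.18-fold higher. The knockouts overlapped and differed by 0.21 for Bmal1-/- over Clock-/- cells (95% interval -0.13 to 0.55, adjusted p = 0.255). The WT level rested on 20 to 31 reads per library, against 97 to 148 reads in Bmal1-/- and 54 to 81 reads in Clock-/- libraries.

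By the distance between centred log2 profiles over the 9 libraries, the protein-coding genes most like Gipr were Asic1 and Il1b, at a root mean square distance of 0.13 for both, beside a spread of 0.69 in Gipr itself. Those most like Glp1r were Tenm3 and Trip11 (0.07 for both), and like Vipr2 they were Gnptab and Lpar1 (0.18 for both). Ghsr was nearest to S100pbp (0.08) and Edaradd (0.10). S100pbp, for example, stood at 25.8 TPM in Bmal1-/-, 21.3 TPM in Clock-/- and 10.6 TPM in WT cells on average. The added 1 in these profiles understates changes of low genes. Il1b averaged 0.125 TPM in Bmal1-/-, 1.37 TPM in Clock-/- and 2.23 TPM in WT cells, and Lpar1 averaged 0.0839, 3.18 and 0.983 TPM. As ratios of TPM, both fell further in Bmal1-/- cells than Gipr and Vipr2 did. The profiles nearest to Vipr1, Gdpgp1 and Rps6kb2 (both 0.05), followed a receptor with a spread of only 0.12.

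Another readout of the same genes came from ChIP-seq of THRAP3, an RNA-binding and transcription-associated protein, in 2 Bmal1-/- and 2 WT libraries, with peaks called by the authors in each library over input. Within the gene body and 5 kb before it, 2 of the 7 receptor genes had a peak in 1 Bmal1-/- list each, and 0 of 7 had one in either WT list. In Bmal1-/- replicate 1 the Glp1r peak lay at chr17:30902343-30902591, in an intron with its centre 650 bases after the annotated start, with 11.8 tags (scaled by the authors to the same total in every library) and 4.51-fold over input. In Bmal1-/- replicate 2 the Gipr peak lay at chr7:19165130-19165374, in an intron 875 bases after the start, with 12.7 tags and 14.59-fold over input. Neither peak was seen in the other Bmal1-/- list, although a window of 10 kb before the gene, chosen after seeing the data, added a Gipr peak 5.88 kb before the start in replicate 1 (9.42 tags, 5.41-fold).

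Neither peak stood out by its height, and the Glp1r peak was among the weakest of its list over input, with 5.44% of peaks below it. The median peak held 12.6 tags and 9.47-fold in Bmal1-/- replicate 1 and 12.0 tags and 9.21-fold in replicate 2. The lists differed in size, with 12949 and 12226 peaks in Bmal1-/- and 808 and 6128 peaks in WT libraries, and 44.6% and 39.9% of the genes tested had a peak in the Bmal1-/- lists, against 3.47% and 22.3% in the WT lists. The absence of a receptor peak in WT cannot be told apart from the shorter WT lists.

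The 2 peak sequences are shown on the strand of the gene, since these are the only peaks within a receptor gene or 5 kb before it. Capitals mark the E-box CACGTG, the CRE TGACGTCA and its core TGACG, the E-prime box CACGTT and the GC box GGGCGG on either strand, the last pair chosen after seeing the data.
Glp1r peak: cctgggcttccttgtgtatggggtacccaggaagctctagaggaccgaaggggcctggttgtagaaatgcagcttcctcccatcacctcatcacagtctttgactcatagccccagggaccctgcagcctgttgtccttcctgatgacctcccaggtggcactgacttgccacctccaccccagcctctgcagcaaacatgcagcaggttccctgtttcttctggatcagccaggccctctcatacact
Gipr peak: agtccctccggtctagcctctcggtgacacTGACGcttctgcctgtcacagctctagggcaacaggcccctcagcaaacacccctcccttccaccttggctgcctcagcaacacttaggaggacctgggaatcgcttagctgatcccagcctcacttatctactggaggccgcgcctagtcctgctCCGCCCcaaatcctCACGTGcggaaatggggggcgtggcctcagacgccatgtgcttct
The Gipr peak held 1 E-box, 1 CRE core and 1 GC box, and the Glp1r peak held none of the 5 motifs. Of all peaks in the same lists, 5.43% held an E-box in replicate 1 and 5.43% in replicate 2, 17.2% and 15.8% held a CRE core, and 25.5% and 22.4% held a GC box.

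The promoters of Vipr2 and Ghsr, which rose in Clock-/- cells or in both knockouts, are shown from 250 bases before to 50 bases after the RefSeq start on GRCm38.p6, as the windows in which the clock factors' E-box was looked for.
Vipr2 promoter, chr12:116077476-116077775: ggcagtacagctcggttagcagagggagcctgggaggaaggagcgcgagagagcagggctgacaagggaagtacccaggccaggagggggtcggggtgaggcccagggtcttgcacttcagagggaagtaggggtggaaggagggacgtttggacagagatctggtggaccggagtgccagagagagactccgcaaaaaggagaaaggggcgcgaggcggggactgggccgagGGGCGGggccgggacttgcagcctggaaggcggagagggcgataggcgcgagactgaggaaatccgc
Ghsr promoter, chr3:27371101-27371400: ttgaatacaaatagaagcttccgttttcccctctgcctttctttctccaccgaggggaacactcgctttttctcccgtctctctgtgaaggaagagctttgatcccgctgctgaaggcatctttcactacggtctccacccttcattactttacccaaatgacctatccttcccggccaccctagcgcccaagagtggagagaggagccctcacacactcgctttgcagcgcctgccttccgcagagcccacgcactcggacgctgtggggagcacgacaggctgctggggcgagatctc
Vipr2 had 1 GC box in this window and Ghsr had none of the 5 motifs. In the windows of the 6 receptors found in the promoter table there was 0 E-box and 0 full CRE, beside 7.15% and 1.79% of 32851 promoters. Gipr was the receptor without a promoter window, so its promoter was not searched. The CRE core was found in Vipr1 only, beside 20.8% of promoters, and GC boxes in Glp1r, Gcgr, Vipr1, Vipr2 and Adcyap1r1, beside 35.7%. A motif match is a description of the letters and not a binding site.

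Ligand genes of these receptors moved apart in the knockouts. Gcg, which encodes glucagon and GLP-1, stood at 53.9, 49.4 and 53.4 TPM in Bmal1-/-, 1308, 1155 and 1211 TPM in Clock-/- and 475, 493 and 462 TPM in WT libraries. It fell by 3.17 in Bmal1-/- (adjusted p = 3.14e-09) and rose by 1.36 in Clock-/- cells (adjusted p = 3.51e-07) on the log2 scale. Gcg also marks α cells, and of the other α-cell markers Irx1 and Irx2 rose in Bmal1-/- cells, by 1.93 (adjusted p = 1.55e-06) and 1.47 (adjusted p = 2.56e-06), so the list did not move as a group. In Clock-/- cells Ttr of this list rose (0.59, adjusted p = 0.00274) and Irx1 fell (-0.66, adjusted p = 0.00242). The summed level of the 5 of 6 α-cell markers with values, Gcg among them, was 1618 to 2151 TPM in Bmal1-/-, 4335 to 5027 TPM in Clock-/- and 2770 to 2864 TPM in WT libraries. Since Gcg is in this sum, the sum is not a separate measure of the other markers. The part of the other markers in the Gcg difference was not tested.

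Adcyap1, the gene of PACAP, also fell in Bmal1-/- and rose in Clock-/- cells, at 1.55, 1.89 and 1.58 TPM in Bmal1-/-, 11.9, 14.7 and 12.0 TPM in Clock-/- and 6.99, 8.5 and 7.51 TPM in WT libraries. Its log2 fold changes were -1.70 in Bmal1-/- (adjusted p = 3.75e-06) and 0.67 in Clock-/- cells (adjusted p = 0.00221) against WT. Dpp4, the protease that inactivates GLP-1 and GIP, was lower in both knockouts, at 8.55 to 9.97 TPM in Bmal1-/-, 9.17 to 11.1 TPM in Clock-/- and 18.2 to 19.3 TPM in WT libraries (log2 fold changes -0.93 and -0.82, adjusted p = 4.44e-05 and 0.000183). Gip reached 1.76 to 2.94 TPM in Clock-/- libraries, where it rose (adjusted p = 0.000759), against 0.248 to 0.693 TPM in WT libraries, and it had 0 to 0.159 TPM in Bmal1-/- libraries. Ghrl, the ghrelin gene, was at most 0.633 TPM and Mrap2, a partner protein of the ghrelin receptor, at most 0.404 TPM in any library. Neither was tested, and Vip was not analysed here.

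Of the ligand and processing genes, 6 were tested, of which 1 rose and 4 fell in Bmal1-/- and 3 rose and 2 fell in Clock-/- cells. Over all genes tested, 39.4% and 23.9% passed in these comparisons. Pcsk2, a prohormone convertase, was the rise in Bmal1-/- cells (0.55, adjusted p = 0.000117), and it fell by 0.39 in Clock-/- cells (adjusted p = 0.00191). Of the other class B hormone receptors, 4 of 9 had values, and Crhr1, the receptor of the stress peptide CRH, was the single one tested. It stood at 37.9 to 42.8 TPM in Bmal1-/-, 43.2 to 45.6 TPM in Clock-/- and 35.5 to 40.4 TPM in WT libraries and did not pass the test in either knockout.

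**Figure D4:**
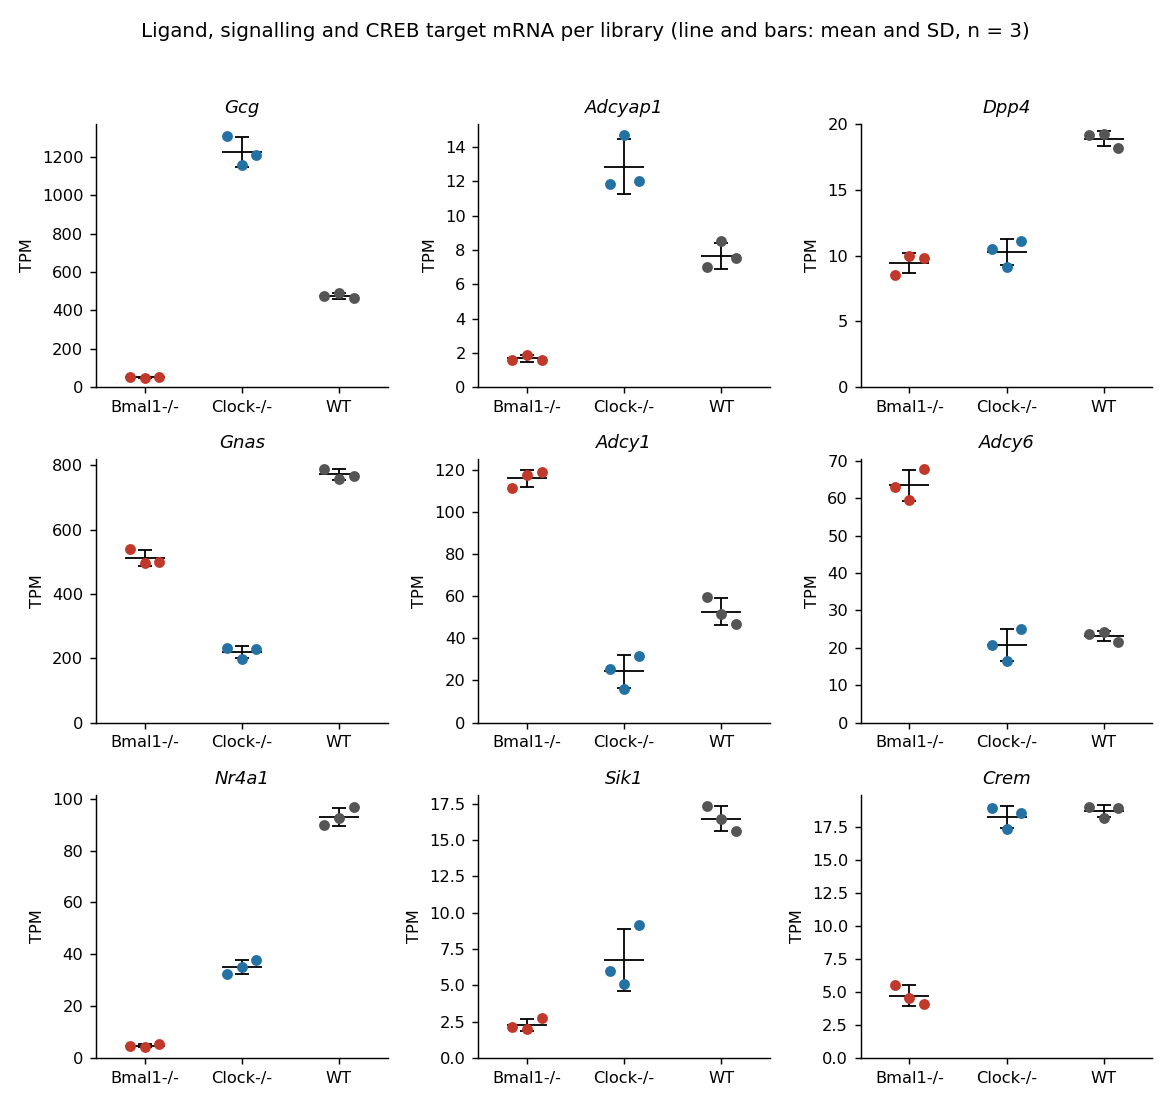
TPM of 9 genes of ligands, signalling and CREB targets in each library of Bmal1-/-, Clock-/- and WT cells (points), with the mean and SD of 3 libraries (line and bars). Gcg and Adcyap1 are lowest in Bmal1-/- and highest in Clock-/- cells, Gnas is lowest in Clock-/- cells at 198 to 233 TPM, and Nr4a1 is below WT in both knockouts.

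Gnas, which encodes the stimulatory G protein subunit used by the class B receptors, fell in both knockouts, at 541, 496 and 499 TPM in Bmal1-/-, 233, 198 and 228 TPM in Clock-/- and 789, 758 and 767 TPM in WT libraries. The log2 fold changes were -0.59 (adjusted p = 9.80e-05) and -1.81 (adjusted p = 1.09e-07). These levels cover the whole gene and do not separate its transcripts. The authors name Gnas among the genes with altered splicing in Bmal1-/- cells. Of 8 G protein subunit genes tested, 1 rose and 2 fell in Bmal1-/- and 2 fell in Clock-/- cells. Among all genes tested, 39.4% and 23.9% passed in the same comparisons. The inhibitory subunit gene Gnai3 fell in Bmal1-/- cells (-0.59, adjusted p = 0.000473) and Gnai1 in Clock-/- cells (-0.74, adjusted p = 0.000741). Gna11, a subunit coupled to phospholipase C, was the rise in Bmal1-/- cells (0.40, adjusted p = 0.000315).

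Adenylyl cyclase genes, whose products make cAMP, split by member. Adcy1 was at 112, 118 and 119 TPM in Bmal1-/-, 25.6, 16.0 and 31.6 TPM in Clock-/- and 59.5, 51.6 and 46.7 TPM in WT libraries, and it rose in Bmal1-/- (1.13, adjusted p = 0.000942) and fell in Clock-/- cells (-1.12, adjusted p = 0.00166). Adcy6 was at 59.6 to 67.9 TPM in Bmal1-/-, 16.4 to 25.0 TPM in Clock-/- and 21.6 to 24.2 TPM in WT libraries, and rose in Bmal1-/- cells (1.42, adjusted p = 1.70e-05). Adcy9 fell in Clock-/- cells (-1.44, adjusted p = 0.00595), where it spread from 5.13 TPM in replicate 2 to 18.0 TPM in replicate 3, and Adcy2 fell in Bmal1-/- cells (-0.88, adjusted p = 0.000299). Of 7 cyclase genes tested, 2 rose and 2 fell in Bmal1-/- and 1 rose and 3 fell in Clock-/- cells. The shares of all genes that passed were 39.4% and 23.9%.

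Phosphodiesterases end the signal by breaking down cyclic nucleotides. Of 10 tested, 1 rose and 4 fell in Bmal1-/- and 4 fell in Clock-/- cells, beside 39.4% and 23.9% of all genes that passed. The median log2 fold change was -0.56 in Bmal1-/- and -0.17 in Clock-/- cells, beside -0.04 and -0.02 over all genes. Pde1b was the rise in Bmal1-/- cells (0.71, adjusted p = 0.000195). Pde10a (6.14 to 6.63 TPM in Bmal1-/- and 21.3 to 26.1 TPM in WT libraries) fell by 1.76, Pde1c by 1.73 and Pde4b by 0.80 in Bmal1-/- cells (adjusted p = 2.24e-05, 1.57e-05 and 0.000657). Pde4c fell by 1.52, Pde8a by 0.88 and Pde3b by 0.53 in Clock-/- cells (adjusted p = 9.02e-05, 0.000535 and 0.00874).

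Of 12 effectors of cAMP tested, 2 rose in Bmal1-/- cells, and 2 rose and 1 fell in Clock-/- cells, beside 39.4% and 23.9% of all genes that passed. The protein kinase A catalytic subunit genes Prkacb and Prkaca rose in Bmal1-/- cells (0.97 and 0.40, adjusted p = 7.73e-05 and 0.00178). In Clock-/- cells the regulatory subunit gene Prkar1b fell (-0.50, adjusted p = 0.000573) and Prkar1a rose (0.27, adjusted p = 0.00978). The larger rise there was Pkib, a protein kinase A inhibitor gene (1.25, adjusted p = 4.75e-05). Among the 11 CREB factors and coactivators, 1 rose and 2 fell in Bmal1-/- and 1 fell in Clock-/- cells, and Crtc2, a coactivator of CREB, was the rise in Bmal1-/- cells (0.55, adjusted p = 0.000695).

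More of the genes that CREB is known to activate fell than rose in both knockouts. Of 11 tested, 1 rose and 6 fell in Bmal1-/- and 2 rose and 6 fell in Clock-/- cells, with a median log2 fold change of -1.63 and -0.61, beside -0.04 and -0.02 over all genes. Of all genes tested, 21% fell in Bmal1-/- and 14.4% in Clock-/- cells. The rises were Dusp1 in Bmal1-/- (0.63, adjusted p = 0.00177) and Bdnf and Ppargc1a in Clock-/- cells (0.73 and 0.70, adjusted p = 0.00404 and 0.00249). The falls in Clock-/- cells included the clock gene Per1 (-0.72, adjusted p = 0.00205). Nr4a1, an immediate early nuclear receptor gene, stood at 4.67, 4.11 and 5.45 TPM in Bmal1-/-, 32.4, 35.0 and 37.6 TPM in Clock-/- and 90.1, 92.4 and 97.0 TPM in WT libraries. The 3 genotypes lay well apart, with log2 fold changes of -4.04 in Bmal1-/- (adjusted p = 4.46e-09) and -1.39 in Clock-/- cells (adjusted p = 5.02e-06) against WT. Nr4a3, of the same family, fell by 2.42 in Bmal1-/- and by 1.98 in Clock-/- cells (adjusted p = 4.35e-06 and 2.78e-05). Sik1, a kinase that restrains CREB coactivators, was at 1.96 to 2.74 TPM in Bmal1-/-, 5.05 to 9.13 TPM in Clock-/- and 15.6 to 17.3 TPM in WT libraries and fell in both (-2.42 and -1.21, adjusted p = 4.38e-06 and 0.000659). Crem, a CREB relative, fell in Bmal1-/- cells (-1.79, adjusted p = 1.03e-06), had a fold change of -0.03 in Clock-/- cells (adjusted p = 0.832), and was lower in Bmal1-/- than in Clock-/- cells (-1.76, adjusted p = 1.14e-06). Fos was at 1.68 to 3.12 TPM in Bmal1-/-, 9.79 to 10.5 TPM in Clock-/- and 15.7 to 18.1 TPM in WT libraries. Sik1 and Crem stand in both of these lists.

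**Figure D5:**
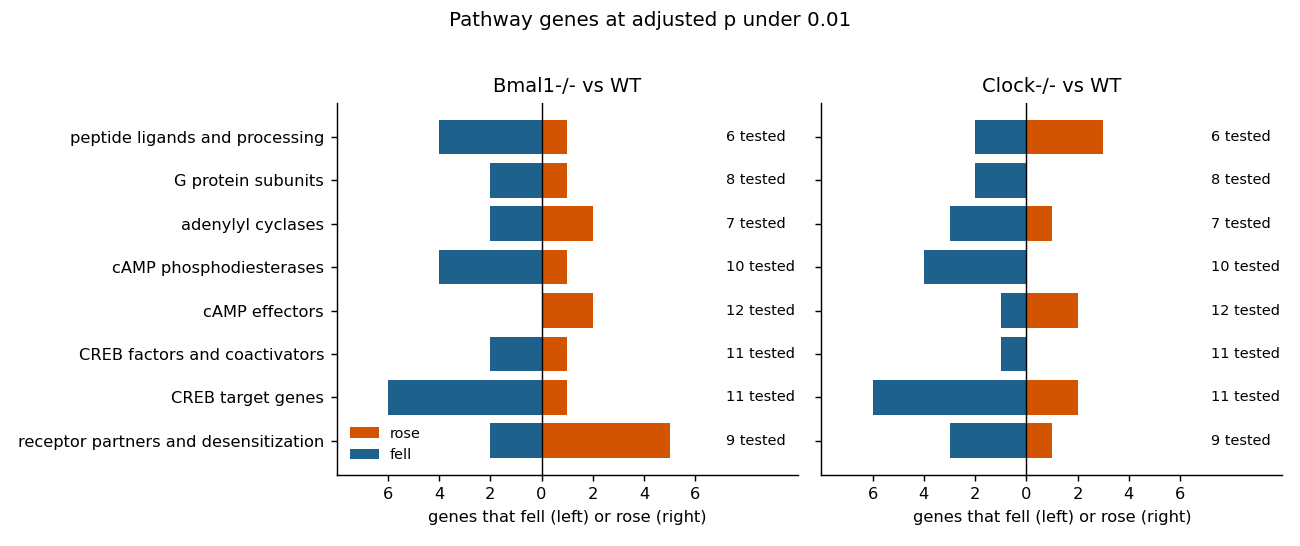
Number of genes per pathway list that rose (right) or fell (left) at an adjusted p under 0.01 in Bmal1-/- against WT (left panel) and Clock-/- against WT cells (right panel), with the number tested beside each bar. CREB target genes have 6 falls in each panel, and receptor partners and desensitization genes have 5 rises in Bmal1-/- and 1 in Clock-/- cells.

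Several genes that switch receptors off rose in Bmal1-/- cells. Arrestins and receptor kinases bind activated receptors and end their signal. Arrb1 was at 17.2 to 17.5 TPM in Bmal1-/-, 4.69 to 8.60 TPM in Clock-/- and 5.83 to 7.78 TPM in WT libraries, and rose in Bmal1-/- cells by 1.21 (adjusted p = 0.000335). Arrb2 rose by 0.62 in Bmal1-/- (adjusted p = 0.000101) and fell by 0.62 in Clock-/- cells (adjusted p = 0.000209). Grk5 rose by 1.11 in Bmal1-/- cells (adjusted p = 7.24e-05), and Grk3 fell by 0.70 in Clock-/- cells (adjusted p = 0.00908). Ramp1, an accessory protein of class B receptors, rose in both, by 0.88 (adjusted p = 0.000129) and 0.46 (adjusted p = 0.00952). Its relatives went the other way. Ramp3 fell in both knockouts (-1.34 and -0.93, adjusted p = 0.000776 and 0.00945). Ramp2 fell in Bmal1-/- cells (-0.74, adjusted p = 0.00413) and did not pass in Clock-/- cells (-0.23, adjusted p = 0.304). Of 9 tested in this list, 5 rose and 2 fell in Bmal1-/- and 1 rose and 3 fell in Clock-/- cells. The counts of all these lists stand beside the 39.4% and 23.9% of genes that passed over the whole table.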

How the data were processed

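Values were the authors' deposited TPM of 20599 genes in 9 RNA-seq libraries, made by the authors from poly(A) directional libraries with STAR 2.5.0 on mm10 and featureCounts 1.5.3 on GENCODE vM10. All 9 columns were assigned to genotypes by the sample labels. The authors' DESeq2 1.22.1 tables hold their own comparisons, of which only the deposited mean count signal was used, to infer gene lengths. Multiplying TPM by exon length gave whole reads, within 0.05 of a read for 100% of values under 200 reads over the 15767 genes whose ID version matches GENCODE vM21, and within 0.2 of a read for 87.1% of values under 50 reads in the others. IDs were matched to names and GRCm38 coordinates through GENCODE vM21 for 20499 genes.

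TPM is not a count, so log2(TPM + 1) of genes with at least 1 TPM in at least 3 of 9 libraries was fitted with limma 3.58.1 (R 4.3.3, mean-variance trend, genotype only), with Benjamini-Hochberg adjustment and a threshold of 0.01. The fit was tested on simulated data. Peaks are the authors' HOMER lists per library after Bowtie2 2.2.4. Their signal (tags scaled to one total) and fold over input are values of the authors as deposited. Of the eCLIP and input libraries nothing was analysed here.

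The members and gene lists were chosen with earlier results of these data known. Apart from the receptors, named genes are Gcg, Gip, Vip, Adcyap1, Ghrl, Dpp4, Mrap2, Arntl, Clock, Ins1 and Ins2, up to 3 genes a list and comparison with the largest change at a mean of at least 5 TPM, and the 2 nearest profiles per tested receptor. Crhr1, Pdx1, Dusp1, Bdnf, Ppargc1a, Per1, Pde1b, Pkib, Ramp2 and Ramp3 were named after their values were seen. Alternatives covered normalization, pseudocount, filter, variance model, samples in the fit, replicate block and leaving out each library. Limma voom on recovered reads and centring by exon length were added after seeing the data. Sequences are from RefSeq.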

Additional observations from a re-analysis of the deposited data

Results flagged for a closer look

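For Gipr and Vipr2 the knockout lines differed by a direct test of Bmal1-/- against Clock-/- cells. Each line is 1 picked colony, so the test cannot tell the lost gene from the colony. Gipr had a log2 fold change of -1.18 for Bmal1-/- over Clock-/- cells (limma adjusted p = 3.77e-05), with all 3 Bmal1-/- libraries below all 3 Clock-/- libraries. Vipr2 had one of -2.04 (limma adjusted p = 9.32e-06), with all 3 Bmal1-/- libraries again the lower ones and the changes against WT opposite in sign. Of these changes, the fall in Bmal1-/- cells passed in only 9 of 17 alternatives.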

How the results depend on the processing

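The comparisons rest on wells of 1 line per genotype and, for Vipr1, Vipr2 and Ghsr, on at most 300 reads per library. The calls for Gipr in Bmal1-/- against WT, Ghsr and Vipr2 in Clock-/- against WT, Ghsr in Bmal1-/- against WT, and Gipr and Vipr2 between the knockouts passed under every alternative that gave a value. Glp1r in Bmal1-/- against WT passed in 3 of 17 alternatives, with the chromosome median subtracted (adjusted p = 0.00611), with only the 2 groups compared (2.81e-05) and with limma voom on recovered reads (0.0019). Vipr1, with no call, turned to 0.16 in Bmal1-/- against WT and 0.22 in Bmal1-/- against Clock-/- cells under quantile normalization and to 0.012 between the knockouts with the chromosome median subtracted. Leaving out each library in turn gave -0.15 to 0.028 for Vipr1 between the knockouts and -0.47 to 0.13 for Glp1r in Clock-/- against WT, and 2 to 3 receptors called in each comparison. With a mean of at least 5 TPM, 1 receptor was called in Clock-/- against WT, since Ghsr was no longer tested. With at least 8-fold over input, 1 receptor peak was left of 2. Over all genes, 3590 passed in Clock-/- against WT, but 2291 without WT replicate 1 and 2197 without WT replicate 2.

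Replicate numbers did not pair the libraries. Over the 9 pairs that share a number, deviations from genotype means had r of -0.21 to 0.07, against -0.16 to 0.21 over the 18 other pairs. With the replicate block, Vipr2 in Bmal1-/- against WT (-0.67) had an adjusted p of 0.0146, and no other receptor call changed.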
